A study of Mus musculus with 4 samples.

Results

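The miRNAs described here are made from introns of a pair of neurotransmitter receptor genes, Htr2c and Chrm2. Rows of the deposited miRNA table were taken when their name was an arm of miR-448, miR-764, miR-1264, miR-1298 or miR-1912, which lie in Htr2c, or of miR-490, which lies in Chrm2. This gave 11 of 1038 rows, 9 arms of 5 miRNAs in Htr2c and 2 arms of 1 miRNA in Chrm2. A working list named 10 of them. The other one, miR-448-5p, fits the same rule and was added. The rule goes by host gene and uses no measured value.

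Small RNA was sequenced from the medial prefrontal cortex of C57BL/6 mice (C57BL/6J in the study's methods), with 2 control libraries and 2 libraries from mice exposed to chronic unpredictable mild stress (CUMS). The mice were males that were juvenile at the start, and the CUMS schedule ran over several weeks before the tissue was taken. The CUMS animals were those stressed mice that met behavioural criteria for a depression-like state, so the group stands for affected mice and not for all stressed mice. RNA was isolated from the tissue of each mouse. The letters a and b only separate the libraries of a group, and with 2 libraries against 2 the smallest two-sided exact permutation p is 0.33.

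Htr2c encodes the serotonin 5-HT2C receptor, a receptor coupled to Gq proteins that is found on neurons of the cortex and other brain regions and is very abundant in the epithelium of the choroid plexus. Chrm2 encodes the M2 muscarinic acetylcholine receptor, which is coupled to Gi proteins and dampens the release of acetylcholine from nerve endings. An intronic miRNA on the strand of its host is usually cut out of the host's own primary transcript by Drosha, and Dicer then trims the hairpin to a duplex whose arms are called 5p and 3p. The arm that is kept guides Argonaute to messenger RNAs, mainly through its seed, bases 2 to 8.

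In the GRCm38 annotation the hairpins lay on the strand of their hosts and overlapped 0 exons. Htr2c spans chrX:146962513-147197277 on the plus strand. Counted from its start, Mir764 lay at 39.75 kb (chrX:147002259-147002366), Mir1912 at 46.9 kb (chrX:147009441-147009527), Mir1264 at 48.1 kb (chrX:147010601-147010686) and Mir1298 at 102.4 kb (chrX:147064905-147065002), all in intron 2 or 3 of the 4 coding transcripts, depending on the transcript. Mir448 lay farther along, at 195.7 kb (chrX:147158210-147158321), in intron 4 or 5. The closest neighbours, Mir1912 and Mir1264, were 1.07 kb apart. Mir490 lay at 33.66 kb in Chrm2 (chr6:36421742-36421825 within chr6:36388084-36528414, plus strand), in intron 2 of 2.

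The mature sequences are shown because these miRNAs share a host and not a sequence. They are taken from RefSeq on GRCm38.p6, which held 10 of the 11 arms, all but miR-1264-5p, and they are written 5′ to 3′ with the seed in capitals. The arms from Htr2c were:
mmu-miR-764-5p: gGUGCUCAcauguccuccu
mmu-miR-764-3p: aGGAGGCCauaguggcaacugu
mmu-miR-1912-3p: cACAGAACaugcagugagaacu
mmu-miR-1264-3p: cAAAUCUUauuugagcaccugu
mmu-miR-1298-5p: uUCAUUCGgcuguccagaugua
mmu-miR-1298-3p: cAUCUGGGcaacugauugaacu
mmu-miR-448-5p: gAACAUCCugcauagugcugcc
mmu-miR-448-3p: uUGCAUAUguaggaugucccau
The arms from Chrm2 were:
mmu-miR-490-5p: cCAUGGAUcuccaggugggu
mmu-miR-490-3p: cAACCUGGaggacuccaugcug
The 10 sequences, 19 to 22 bases long, carried 10 distinct seeds. Only miR-764-3p shared its seed with another of the 1679 mature mouse sequences, miR-7062-5p, for which the table held no row.

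The control libraries held 10533646 and 10783592 reads on known miRNAs, and the CUMS libraries 10427625 and 9589323. A floor of 3 reads was 2.78e-05% to 3.13e-05% of a library, and intervals and floors cover counting error only. Levels below are normalized counts, that is reads divided by the size factor of the library. miRNAs of cortical neurons were abundant in every library, with a summed normalized count of miR-124-3p, miR-9-5p and miR-128-3p between 694641 and 934408. Control library b stood apart by 8 miRNAs of epithelial and sensory cells, which summed to 1004810 there and to 4047, 4936 and 7329 in control library a and the CUMS libraries, with miR-182-5p alone at 961760. Its part in the values of that library was not tested. In bulk tissue, fewer cells of a type and less RNA per cell cannot be told apart.

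The receptor-hosted arms covered a wide range of levels. miR-1298-3p ranked 142 by mean among the 1038 miRNAs and miR-1298-5p 162. They were followed by miR-490-3p (257), miR-764-3p (296), miR-448-3p (312), miR-1264-3p (364), miR-448-5p (366) and miR-490-5p (377). miR-1264-5p (587), miR-1912-3p (620) and miR-764-5p (668) had at most 7 reads in any library. The libraries of miR-764-3p and miR-448-3p overlapped. So did those of miR-1264-3p, miR-448-5p and miR-490-5p, and those of the 3 arms with the fewest reads. The order within these sets was thus not beyond the spread between libraries. The lowest value of miR-764-3p, 66.75 in CUMS library b, also lay below the highest of miR-1264-3p, 67.97 in control library b. Within each library miR-764-3p had the higher count of these arms. The libraries of both miR-1298 arms also overlapped, although the 3p arm had more reads than the 5p arm in each library.

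**Figure D1:**
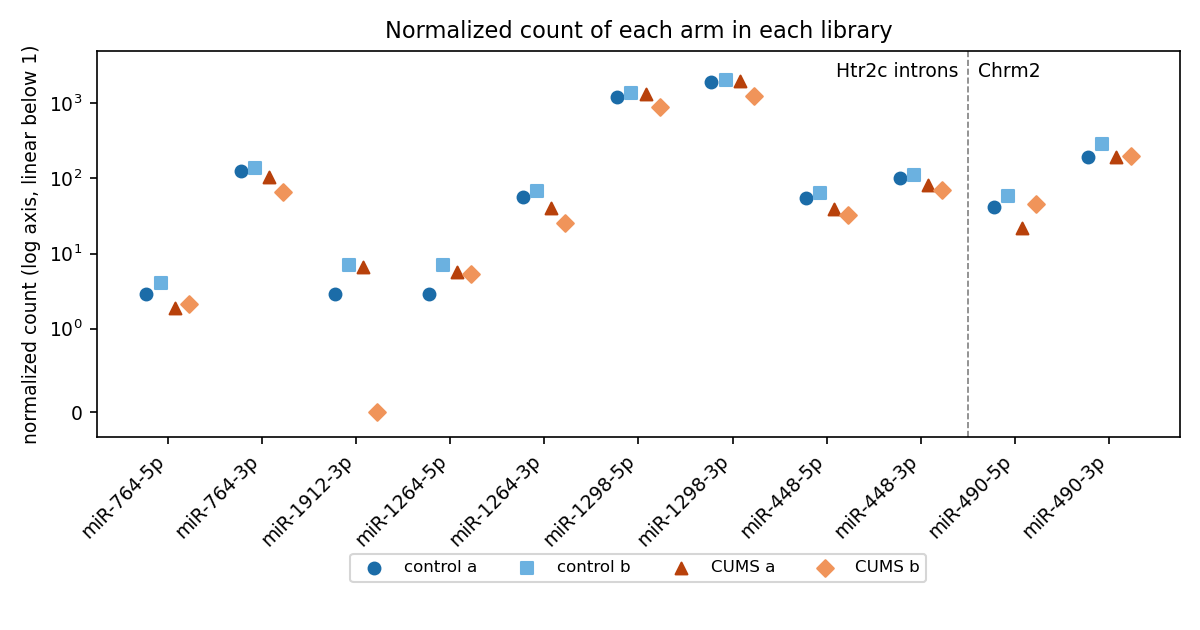
Normalized count of the 11 arms (log axis, linear below 1) in the 2 control and 2 CUMS libraries, 1 point per library, with the Chrm2 arms right of the dashed line. The miR-1298 arms lie between 895 and 2012, and miR-1912-3p has 0 reads in CUMS library b.

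The miRNAs of Htr2c did not come in equal amounts. miR-1298, which lies alone between the cluster of 3 hairpins and miR-448, supplied 90.1% and 89.5% of all Htr2c-hosted reads of the control mice and 92.2% and 91.3% of those of the CUMS mice. miR-448 followed with 4.50% and 4.59% against 3.36% and 4.40%. miR-764 gave 3.65% and 3.77% against 2.99% and 2.95%, and miR-1264 1.71% and 1.98% against 1.29% and 1.31%. miR-1912 gave 0.0843% and 0.185% in the control libraries, 0.184% in CUMS library a and 0 of 2205 reads in CUMS library b, where the exact 95% interval reached 0.167%. The abundance of a miRNA thus followed no order along the gene, and the neighbours miR-1912 and miR-1264 differed in every library.

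**Figure D2:**
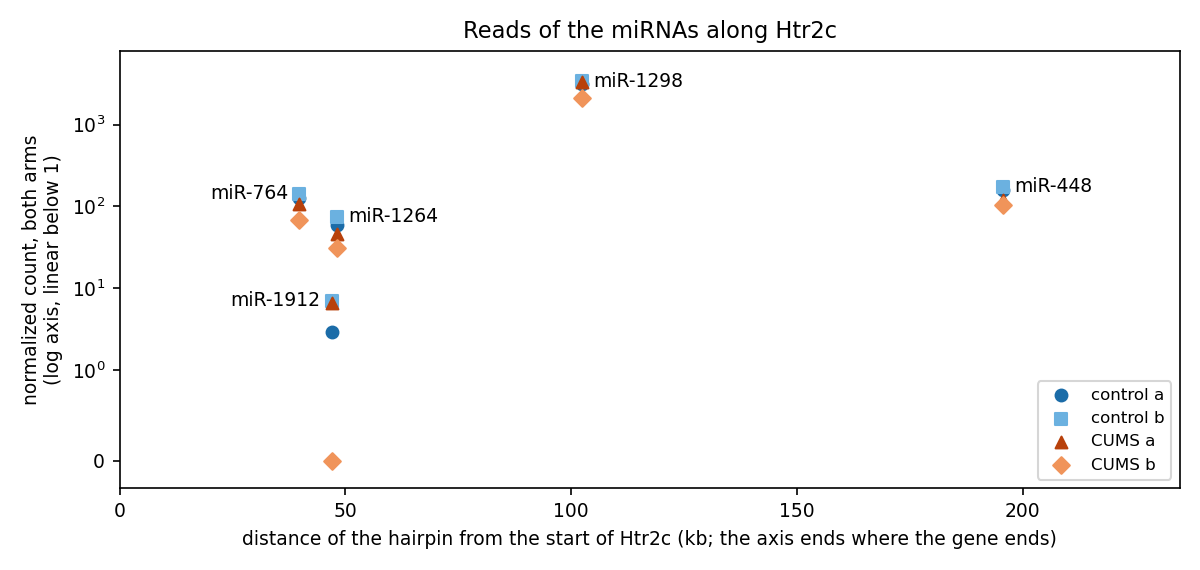
Normalized count of both arms of each Htr2c miRNA (log axis, linear below 1) against the distance of its hairpin from the start of the gene in kb, 1 point per library. miR-1298, at 102.4 kb, lies far above the hairpins on either side of it.

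The group means of most arms were lower in CUMS. Of the 11 arms, 10 had at least 5 reads in a library and were tested, and miR-764-5p was not. The mean was lower in CUMS for 9 of the 10, against 47.7% of the 719 miRNAs tested, and higher for miR-1264-5p. For 4 arms, miR-764-3p, miR-1912-3p, miR-1264-3p and miR-448-5p, it was lower by more than 1.5-fold, against 16.7% of all. Both CUMS libraries lay below both control libraries in 4 of the 10, miR-764-3p, miR-1264-3p, miR-448-5p and miR-448-3p, against 17.1% of all. These were 4 of 8 Htr2c arms and 0 of 2 Chrm2 arms. The median log2 change was -0.55 over the 10 arms and 0.00 over all miRNAs tested. The 10 arms come from 6 hairpins, so they are not independent of each other.

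Tested one by one with limma on log2 of the normalized count plus 1, only miR-1264-3p had an unadjusted p under 0.05. So 1 of 10 arms was called lower in CUMS, against 2.36% of all miRNAs called lower. None was called higher, against 1.53% of all called higher. After Benjamini-Hochberg adjustment over the 719, 0 arms passed. Over all miRNAs, limma gave 28 with an unadjusted p under 0.05, 17 lower and 11 higher in CUMS, and 0 after adjustment. edgeR's quasi-likelihood test on the reads called 3 of the 10 arms lower at the same unadjusted threshold (miR-1264-3p, miR-448-5p and miR-448-3p). Over all miRNAs it called 3.34% lower. DESeq2 called 0 of the 10 arms lower, against 2.5% of all miRNAs called lower. The counts of all miRNAs under that threshold were 30 with edgeR and 24 with DESeq2, and 0 after adjustment with either.

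**Figure D3:**
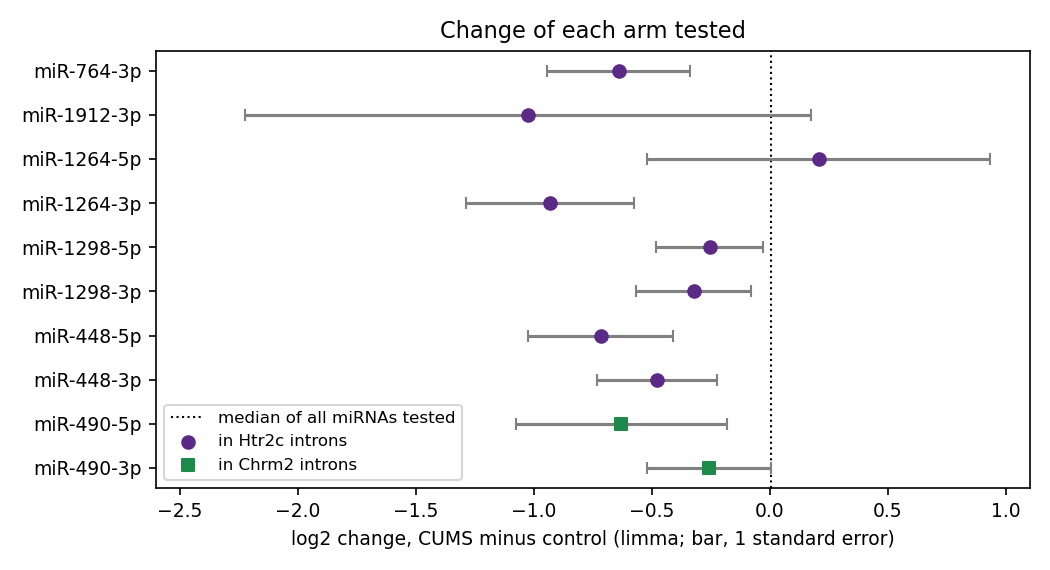
log2 change of each tested arm, CUMS minus control, on the scale of log2 of the normalized count plus 1, with 1 standard error from limma. Of the 10 arms, 9 lie left of the dotted median of all miRNAs, and the bars of the low-count arms miR-1912-3p and miR-1264-5p are the widest.

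miR-1264-3p, one of the closely spaced arms of the cluster, showed the lowest ratio of the arms tested. The control libraries held 58 and 68 of its reads and the CUMS libraries 43 and 24, or normalized counts of 56.7, 68.0, 40.5 and 25.4. The groups did not overlap, and CUMS library b was the lowest. The mean was 0.529 of control, with a log2 change of -0.93 (SE 0.36). The unadjusted limma p was 0.0377 and the adjusted p was 0.835. The unadjusted call was lost with DESeq2, which gave an unadjusted p of 0.101. In limma it was lost without the read filter (log2 change -0.93), with scaling to total reads (-0.85) and without control library a (-1.06), control library b (-0.80) or CUMS library b (-0.61). Its partner arm miR-1264-5p had 3, 7, 6 and 5 reads and a log2 change of 0.21 (SE 0.73), which was 0.72 without control library b and -0.31 without control library a. No difference was detectable at these counts.

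miR-764-3p, the more abundant arm of the hairpin nearest the start of Htr2c, had normalized counts of 124.2 and 138.9 (control) against 105.5 and 66.8 (CUMS). The values did not overlap between the groups, and CUMS library b was again the lowest. The log2 change was -0.64 (SE 0.30), with an adjusted p of 0.835 in limma. It was -0.31 without CUMS library b and -0.97 without CUMS library a, where its unadjusted limma p came under 0.05. miR-764-5p had 3, 4, 2 and 2 reads, too few to be tested. miR-1912-3p had 3, 7, 7 and 0 reads, the last of these in CUMS library b. Its groups overlapped, and its log2 change of -1.03 (SE 1.2) became 0.44 without CUMS library b, -2.49 without CUMS library a and -0.51 without control library b.

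miR-448, the hairpin nearest the end of Htr2c, gave lower counts of both arms in both CUMS libraries. miR-448-3p had 104, 110, 87 and 66 reads, or normalized counts of 101.7, 110.0, 81.9 and 69.9. Its log2 change was -0.48 (SE 0.26), with an adjusted p of 0.835 in limma. miR-448-5p had 56, 64, 41 and 31 reads, or normalized counts of 54.8, 64.0, 38.6 and 32.9. Its log2 change was -0.72 (SE 0.31), with the same adjusted p. In each group the libraries of both arms lay close together, and the groups did not overlap. edgeR gave unadjusted p-values of 0.0338 for miR-448-5p and 0.0487 for miR-448-3p, with an adjusted p of 0.849 for both. The unadjusted p-values were 0.0558 and 0.108 with limma, and 0.177 and 0.24 with DESeq2.

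miR-1298 was the arm pair with the most reads, and its difference rested on a single library. miR-1298-3p had 1959, 2013, 2114 and 1169 reads, or normalized counts of 1916, 2012, 1990 and 1239. miR-1298-5p had 1246, 1380, 1399 and 845 reads, or normalized counts of 1219, 1379, 1317 and 895. CUMS library a lay between the control libraries for both arms, and CUMS library b lay below all others. The log2 changes were -0.32 (SE 0.24) and -0.26 (SE 0.23), with adjusted p-values of 0.865 and 0.886 in limma. Without CUMS library b they were 0.02 and 0.02. Without CUMS library a they were -0.66 and -0.53, both with an unadjusted limma p under 0.05. Without control library b the change of miR-1298-5p was -0.17.

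**Figure D4:**
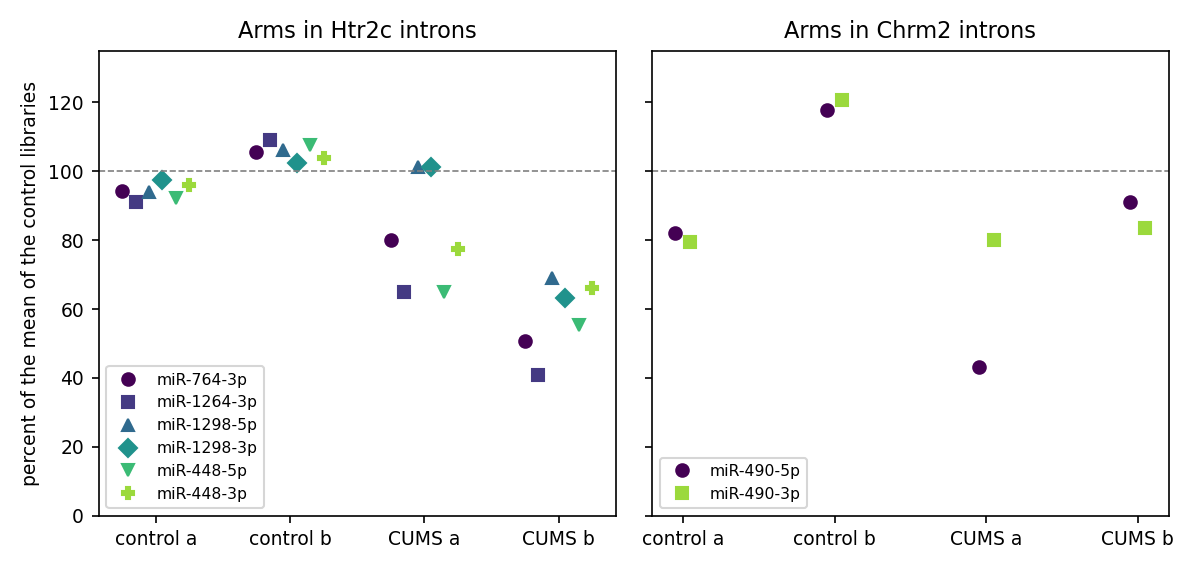
Normalized count of each arm with at least 10 reads in every library, as a percent of the mean of the control libraries (dashed line at 100), 1 marker per arm and library. All 6 Htr2c arms are lowest in CUMS library b, while in CUMS library a the miR-1298 arms stay near the dashed line and the other 4 are below it.

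In CUMS library b the Htr2c arms were low together. All 6 Htr2c arms with at least 10 reads in every library had their lowest value there, and 0 of the 2 Chrm2 arms did, against 28.7% of 464 miRNAs with such reads. The summed normalized count of the 8 listed Htr2c arms was 3426 and 3727 for the control mice and 3550 and 2303 for the CUMS mice, with means of 3576 ± 212 and 2927 ± 881 (SD, n = 2 libraries each). CUMS library a was at 99.3% of the control mean and CUMS library b at 64.4%. The ratio of the means was 0.818, a log2 ratio of -0.29. It moved to -0.01 without CUMS library b and to -0.63 without CUMS library a. With miR-448-5p included it was -0.30.

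The sum is carried by miR-1298, so it was also taken without it. The remaining 7 Htr2c arms summed to 346.3 and 398.8 (control) and to 280.6 and 202.4 (CUMS), a ratio of 0.648. The groups did not overlap. miR-1298 alone summed to 3135, 3392, 3308 and 2134, a ratio of 0.834, and its groups overlapped. Shares within a library do not depend on scaling. They were taken from the same reads, and a higher share of miR-1298 means a lower share of the others together. They are thus no separate support. The share of miR-1298 among Htr2c-hosted reads averaged 89.8% ± 0.407 in control and 91.8% ± 0.596 in CUMS (SD, n = 2), with no overlap (exact permutation p = 0.33, the smallest possible). The shares of miR-764, miR-1264 and miR-448 were lower in both CUMS libraries than in both control libraries, each with the same exact permutation p. The difference for miR-448 was small in CUMS library b, at 4.40% (exact 95% interval 3.58% to 5.34%) against 4.50% (3.84% to 5.23%) in control library a. Adjusted over the 10 shares compared, the smallest p of these permutation tests was 0.556.

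**Figure D5:**
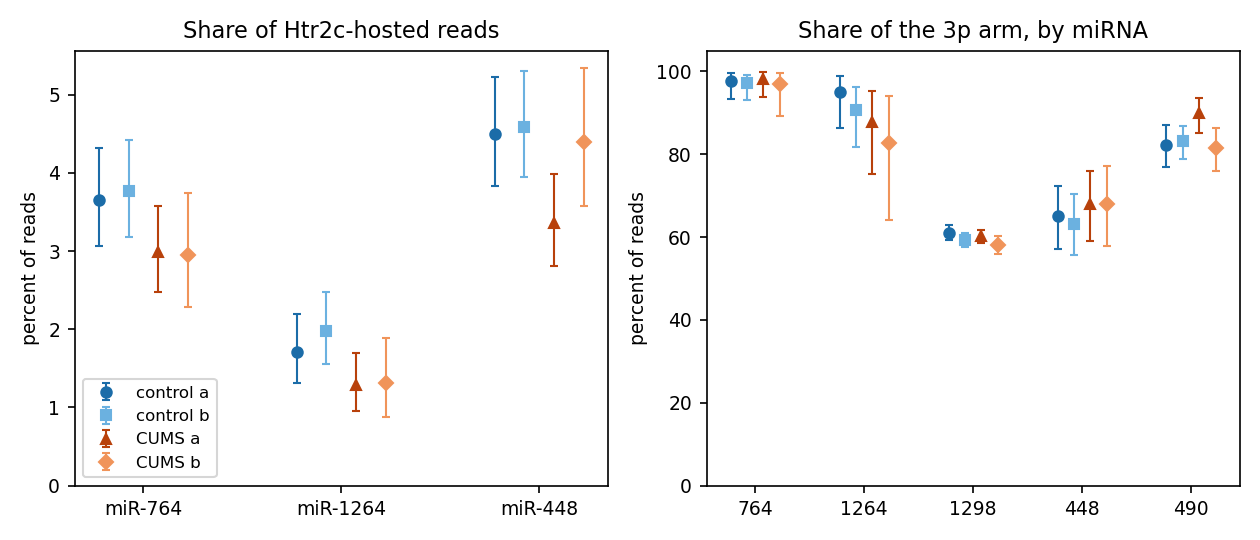
Left, share of miR-764, miR-1264 and miR-448 among the Htr2c-hosted reads of each library; right, share of the 3p arm among the reads of each miRNA, both in percent with exact 95% binomial intervals for counting error. The left shares are lower in both CUMS libraries, and on the right the groups overlap except for miR-1264 and miR-448.

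The choice of arm differed between miRNAs of one host and little between groups. The 3p arm made up 97.7%, 97.2%, 98.2% and 96.9% of miR-764 reads, and so was nearly the only arm seen. The difference between its group means, 0.137 percentage points, became -0.11 without control library b. In miR-1298 both arms were common, with 3p shares of 61.1%, 59.3%, 60.2% and 58.0%. The 3p share of miR-448 was 65.0% and 63.2% in control and 68.0% in each CUMS library. For miR-1264 it was 95.1% and 90.7% against 87.8% and 82.8%. In CUMS library b this rested on 29 reads, with an exact 95% interval of 64.2% to 94.2%. Neither of the last 2 miRNAs overlapped between groups, and both had an exact permutation p of 0.33, the smallest possible. Adjusted over the 10 shares compared, it was 0.556 for both. Arm shares of miRNAs outside these hosts were not computed, so this is not shown to be particular to miR-448 and miR-1264.

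miR-490 of Chrm2 had a different profile over the libraries. miR-490-3p had 196, 291, 205 and 190 reads, or normalized counts of 191.7, 290.9, 193.0 and 201.3. It was high in control library b alone, and the other 3 libraries were close to each other. Its log2 change was -0.26 (SE 0.26), with an adjusted p of 0.886 in limma, and 0.04 without control library b, the library that stood apart by its epithelial miRNAs. Without control library a it was -0.56. miR-490-5p had 42, 59, 23 and 43 reads, or normalized counts of 41.1, 59.0, 21.7 and 45.6, and was lowest in CUMS library a. Its log2 change was -0.63 (SE 0.45), with an adjusted p of 0.835 in limma. It was -0.11 without CUMS library a, -1.15 without CUMS library b and -0.37 without control library b. The 3p share of miR-490 was 82.4%, 83.1%, 89.9% and 81.5%, with CUMS library a the highest.

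Compared directly by their sums, the hosts could not be separated in their response. The Htr2c sum is carried by miR-1298, so this mostly sets miR-1298 beside miR-490. The Htr2c sum without miR-1298 was not compared with the Chrm2 sum. The Chrm2 arms summed to 232.8 and 349.9 (control) and to 214.7 and 246.9 (CUMS), with means of 291 ± 82.8 and 231 ± 22.8 (SD, n = 2). The log2 ratio of the means was -0.34, and -0.01 without control library b. The ratio of the Htr2c sum to the Chrm2 sum was 14.7 and 10.7 for control against 16.5 and 9.33 for CUMS. The groups overlapped, with a log2 difference of -0.01 between them (exact permutation p = 1.0). Leaving out single libraries moved this difference between -0.42 and 0.40.

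miRNAs from introns of other neuronal genes were read beside them. The list held arms from Grid1, Gabre, Astn1, Ptprn2, Pde2a, Pde4d, R3hdm1 and Arpp21, genes of glutamate and GABA receptors, of an adhesion protein, of vesicle proteins and of phosphodiesterases among others. Of its 14 arms, 12 had a higher and 2 a lower group mean in CUMS, where 52.3% of all miRNAs tested had a higher mean. The median log2 change was 0.16. At an unadjusted limma p under 0.05, 2 were higher, miR-128-1-5p and miR-582-5p, against 1.53% of all, and 0 lower. By reads, the first 4 of the list were miR-128-3p (log2 change 0.06), which is also a listed neuronal marker, miR-582-3p (0.30), miR-153-3p (0.00) and miR-128-1-5p (0.55, unadjusted p = 0.0140 and adjusted p = 0.835 in limma). The Htr2c arms tested had a median of -0.56. The difference between the lists was not tested.

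Because Htr2c is abundant in choroid plexus, the markers of that tissue were followed. Of 4 listed arms 3 had a row. miR-204-5p, the abundant one, had normalized counts of 16817 and 21995 (control) against 15872 and 12609 (CUMS). Both CUMS libraries lay below both control libraries, as for 4 of the 8 Htr2c arms tested and 17.1% of all miRNAs tested. Neither miR-1298 arm was among these 4. CUMS library b was the lowest, as for all 6 Htr2c arms with at least 10 reads in every library. That held for 28.7% of all miRNAs with such reads. The log2 change of miR-204-5p was -0.44 (SE 0.19), with an adjusted p of 0.835 in limma. miR-211-5p had 127, 20, 92 and 17 reads, so it was also lowest in CUMS library b, but its groups overlapped, and miR-204-3p had at most 3 reads in a library. The list summed to 16944, 22015, 15960 and 12631, and its part in the Htr2c values was not tested. The 3 oligodendrocyte miRNAs were each lower in both CUMS libraries than in both control libraries, against 17.1% of all miRNAs tested. At an unadjusted limma p under 0.05, 0 of these 3 were lower. They summed to 7887, 8365, 6162 and 7338, lowest in CUMS library a. The sum of the 3 neuronal miRNAs was highest in CUMS library b (827990, 694641, 778283 and 934408). That sum is carried by miR-9-5p. miR-124-3p was also highest in CUMS library b, with normalized counts of 25922 and 23143 (control) against 29393 and 35217 (CUMS). Its unadjusted limma p was 0.0421, a call higher in CUMS made for 1.53% of all miRNAs, and its adjusted p was 0.835. miR-128-3p was lowest in CUMS library b by a small margin, at 169090 against 169770 to 202860 in the other libraries.

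The remaining marker lists were mixed. Red cell miRNAs summed to 119742, 115169, 114587 and 135230, endothelial ones to 13692, 12754, 13020 and 14763, and those of microglia and leukocytes to 1430, 1234, 1396 and 1632. Each of these sums was highest in CUMS library b, where the 6 Htr2c arms with at least 10 reads in every library were lowest. Single markers differed from these sums. The endothelial miR-126a-3p had normalized counts of 1810, 1868, 1735 and 1589. Both CUMS libraries lay below both control libraries, as for 17.1% of all miRNAs tested, and CUMS library b was the lowest. miR-142a-3p, of microglia and leukocytes, had 49.9, 64.0, 40.5 and 45.6, again with no overlap but lowest in CUMS library a. In that list 2 of 3 arms had a lower mean in CUMS, with a median log2 change of -0.39. The part of these cells in the Htr2c values was not tested.

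Among 439 other miRNAs with a mean normalized count of at least 20, those closest to the Htr2c sum over the 4 libraries were miR-770-3p, miR-676-3p and miR-760-3p. Likeness was measured as the root mean square difference of centred log2 values, which was 0.0672, 0.0879 and 0.0953. miR-770-3p had normalized counts of 421, 513, 437 and 299. miR-204-5p was 22nd in this order, at 0.152. Of the members, miR-1298-3p lay at 0.0278 from the sum it dominates and miR-1264-3p at 0.308. Closest to the Chrm2 sum were miR-142a-3p (0.0921), miR-375-3p (0.111) and miR-6932-5p (0.113). miR-375-3p had normalized counts of 4274, 6431, 3513 and 3798 and so was highest in control library b, as miR-490-3p was. With 4 libraries this likeness is a description.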

How the data were processed

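The labels name Bowtie, DESeq and mm10 in the submitters' processing notes. The authors removed adaptor, low-quality and other noncoding RNA reads, matched the rest to miRBase precursors and counted them per mature miRNA. The signal deposited by the authors averages, over the libraries of a group, the reads divided by DESeq size factors (normalized counts). The columns carry no group names and were taken as control and CUMS from the study's own headings. The deposited fold change, its log2, p and adjusted p were not used.

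A mean over 2 libraries is a sum of whole reads times a step for each library. All 1038 means of both groups resolved into whole reads, 100%, with a relative residual of at most 4.7e-15, and 2 control values were ambiguous. The values are normalized signal, so limma 3.58.1 with a trend (pseudocount 1, a minimum of 5 reads in any library, group as the only factor) was the main test, with edgeR 4.0.16 and DESeq2 1.42.0 on the recovered reads as alternatives, in R 4.3.3. On 719 simulated miRNAs, 200 changed 4-fold at a fixed dispersion of 0.02, limma recovered 81.5%, edgeR 85.0% and DESeq2 65.5% at an adjusted p under 0.05. False calls were 5, 4 and 3. The group means of the members differed by less than 4-fold, so these rates do not give the power for them. Loci come from GENCODE M21 on GRCm38. Other values were computed in Python 3.11.15 with scipy 1.17.1.

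The members and lists were chosen with earlier results of these data known. The miRNAs named are the members, the 3 miRNAs closest to each host sum, up to 4 of most reads from the other hosts, the marker lists and miRNAs sharing a seed. Beyond this rule, miR-182-5p and miR-582-5p were named after their values were seen. Host messenger RNAs were not analysed here.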

Additional observations from a re-analysis of the deposited data

How the results depend on the processing

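All 50 of 50 log2 changes of the 10 tested arms kept their direction with a pseudocount of 0.5, TMM factors, scaling to total reads, edgeR and DESeq2. These settings all use the same 4 libraries, so the kept direction says nothing of the spread between libraries. The calls did not hold as well. Of the 10 arms, 1 had an unadjusted p under 0.05 with limma, 0 without the filter, with scaling to total reads and with DESeq2, 2 with TMM factors (miR-1264-3p and miR-448-5p), 3 with edgeR, and 0 to 4 when single libraries were left out, with 4 without CUMS library a (miR-764-3p, miR-1264-3p and both arms of miR-1298) and 0 without each other library. Among all miRNAs the 28 such calls became 58 without the filter, 17 with at least 10 reads in every library, and 10 to 48 when single libraries were left out, with 10 without control library b and 48 without CUMS library a. 7 passed adjustment without control library a. The split of these calls was 17 lower and 11 higher in CUMS (60.7% lower), 9 and 8 (52.9%) with at least 10 reads in every library, 20 and 9 (69.0%) with TMM factors, 10 and 21 (32.3%) with scaling to total reads, 24 and 6 (80.0%) with edgeR and 18 and 6 (75.0%) with DESeq2. The cause was not tested.

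Leaving out single libraries turned the sign of miR-1912-3p (-2.49 to 0.44), miR-1264-5p (-0.31 to 0.72), miR-1298-5p (-0.53 to 0.023), miR-1298-3p (-0.66 to 0.020) and miR-490-3p (-0.56 to 0.040), and did not turn that of miR-764-3p (-0.97 to -0.31), miR-1264-3p (-1.26 to -0.61), miR-448-5p (-0.83 to -0.60), miR-448-3p (-0.59 to -0.36) and miR-490-5p (-1.15 to -0.11). The log2 ratio of the Htr2c sum ranged from -0.63 to -0.011, that of the Chrm2 sum from -0.60 to -0.013, and the difference between hosts from -0.42 to 0.40. In percentage points, the differences in shares ranged from -0.52 to 0.80 for the 3p arm of miR-764, from -1.20 to 7.16 for that of miR-490 and from -0.13 to 0.049 for miR-1912 among Htr2c-hosted reads. The other 7 shares kept their sign. A lone library left in a group was assumed to vary like the other group.

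No paired analysis was possible because the group means carry no replicate numbers. The study placed different mice in the control and CUMS groups, compared them with unpaired t-tests and describes no pairs. No known pairing of the libraries was thus lost. The p-values measure only the spread between these libraries. At under 10 reads, as for miR-764-5p, miR-1912-3p and miR-1264-5p, counting error limits any statement.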
